A study of Mus musculus with 24 samples.

Results

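The glands described here are inguinal mammary glands of C57 mice at lactation day 21, set against glands of C57 mice labelled non-lactating, with 3 mice a side. They were chosen by genotype and stage from the sample titles, and they are 6 of the 24 glands of the series. The series held 8 groups of 3 mice: the genotypes BL/6 C57 and BL/6 NZB, each non-lactating and at lactation days 8, 14 and 21. The C57 glands of days 14 and 8, also 3 each, were used to place day 21 within lactation. The NZB glands entered the shared estimate of spread, a check of a gland's genotype, a comparison of antibody genes and a closing comparison of effects. Whole glands were frozen, and the RNA with a poly(A) tail was sequenced. Day 21 is late lactation in the mouse, close to the usual age of weaning. The labels give no litter size, no suckling state at collection and no earlier history of the non-lactating mice.

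A lactating gland is a secretory organ built from alveoli. In each alveolus a layer of luminal epithelial cells makes milk, and contractile myoepithelial cells around it push the milk out. Prolactin, acting through the kinase JAK2 and the transcription factor STAT5, keeps the casein genes and the other milk protein genes on. When suckling stops, the gland involutes: STAT3 becomes active, acute phase and lysosomal genes rise, the alveoli die back and the fat pad refills.

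STAT5 binds to DNA as a dimer at the inverted repeat TTCNNNGAA, where N is any base. This motif reads the same on both strands. It was searched for in RefSeq promoters (GRCm38.p6, 300 bases each, from 250 before to 50 after the annotated start), and 3 promoters are shown as those of milk protein genes that hold the motif before the start, printed in capitals. Each runs 5′ to 3′ along the strand of its gene.
Csn1s1: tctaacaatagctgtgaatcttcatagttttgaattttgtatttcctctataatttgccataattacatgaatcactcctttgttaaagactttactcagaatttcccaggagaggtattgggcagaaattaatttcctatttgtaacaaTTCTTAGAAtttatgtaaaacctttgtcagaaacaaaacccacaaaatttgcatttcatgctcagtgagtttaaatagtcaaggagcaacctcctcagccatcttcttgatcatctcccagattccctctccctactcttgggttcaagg
Csn2: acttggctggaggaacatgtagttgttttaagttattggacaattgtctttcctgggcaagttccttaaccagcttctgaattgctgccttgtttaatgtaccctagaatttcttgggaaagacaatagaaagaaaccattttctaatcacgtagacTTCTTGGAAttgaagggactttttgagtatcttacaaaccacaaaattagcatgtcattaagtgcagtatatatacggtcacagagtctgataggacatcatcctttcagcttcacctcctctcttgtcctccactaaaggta
Glycam1: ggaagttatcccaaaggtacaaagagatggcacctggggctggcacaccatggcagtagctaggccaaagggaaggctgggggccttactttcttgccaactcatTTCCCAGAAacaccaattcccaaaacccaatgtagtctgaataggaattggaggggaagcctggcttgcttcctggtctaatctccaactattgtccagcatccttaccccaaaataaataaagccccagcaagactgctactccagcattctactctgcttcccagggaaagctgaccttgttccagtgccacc
The first line is the promoter of an alpha-casein gene (chr5:87665958-87666257, plus strand), the second that of the beta-casein gene (chr5:87699376-87699675, minus strand) and the third that of Glycam1, a milk mucin (chr15:103565032-103565331, minus strand). The motif began 100 bases before the start in Csn1s1, 93 bases before it in Csn2 and 145 bases before it in Glycam1. Of the 17 genes of the milk protein list 13 had a promoter in the table, and 4 of the 13 genes (30.8%) held the motif, Csn1s2a being the fourth. Over all 27025 genes of the table the share was 9.6%. Of the 14 genes with the largest increases outside the milk proteins, given further on, 12 had a promoter and 1 held the motif, which was Pigr (8.3%). A match is a description of these letters and not a measured binding site.

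The deposited values are counts per 1000000 (CPM), and a deposited column has a fixed sum, so a gene's CPM falls when others take more of the counts. That matters here, because in the 3 day 21 glands the 17 milk protein genes took 61.2%, 75.6% and 73.3% of all counts. In the non-lactating glands they took 0.44%, 0.42% and 0.46%. Values of milk protein genes below are deposited CPM, and those of all other genes are CPM recomputed over the counts that are not of those 17 genes, called non-milk CPM. This rescaling raised values in the day 21 glands by 1.37, 2.04 and 1.91 on the log2 scale. CPM is not corrected for gene length, so levels are compared between glands and not between genes. Log2 differences are of log2(CPM + 1), which understates the change of low genes.

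In units of 1000000 counted reads, the day 21 libraries held 17.6 to 21.1 and the non-lactating ones 7.03 to 15.9. Each gland had 2 columns, which differed by less than the sampling noise or little more and were averaged and counted as 1 sample. Non-lactating gland 2 stood apart from the other 2 of its group. It had the fewest reads, and its 2 columns held 2.17 and 11.9 in the same unit. Its white adipocyte markers summed to 15640 non-milk CPM against 25100 and 27050, and its luminal secretory epithelium markers to 2401 against 1099 and 1077. The title of non-lactating gland 3 says C57 while its genotype tag says NZB. Gm29216, a nuclear copy of a mitochondrial gene, was at 3591 CPM in that gland, at 2926 and 1714 in the other non-lactating C57 glands and at 0 in all 12 NZB glands, and the gland was kept as C57. Leaving out each of the 6 glands in turn is among the alternatives tried.

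The C57 glands of days 14 and 21 with the same mouse number resembled each other in their antibody genes. Over 278 immunoglobulin V segments, the gene pieces that B and plasma cells join into antibody genes, the 3 same-numbered pairs of a day 14 and a day 21 gland correlated at 0.88 to 0.90, and the 6 differently numbered pairs at 0.68 to 0.77. Between days 8 and 21 these ranges were 0.64 to 0.70 and 0.62 to 0.70. Over all genes outside the milk proteins the likeness was less regular: the chi-square per gene was 12.8, 4.3 and 25.0 in same-numbered pairs 1, 2 and 3, and 10.4 to 31.9 in differently numbered pairs, so only pair 2 lay outside that range. Pair 1 lay below every differently numbered pair that held either of its glands (22.5 to 31.9). Pair 3 lay within the range of those that held either of its glands (10.4 to 28.7). The labels do not say whether glands of the 2 days share mice, and the source of the likeness was not tested. Gland number 1 was also high in lymphocyte markers on both days: T cell markers summed to 95.3 non-milk CPM at day 21 and 111.5 at day 14, against 25.8 to 29.1 in the other 4 glands of those days.

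Markers matched the labelled tissue. Epcam, an adhesion protein of epithelial cells, was at 236, 206 and 273 non-milk CPM at day 21. The caseins were among the largest single sources of reads, and Krt14, a keratin of myoepithelial cells, was at 19.0, 25.3 and 39.4. Skeletal muscle markers, which would come from tissue next to the gland, summed to at most 10.6 at day 21 and to 42.1 to 54.4 in the non-lactating glands. Because whole glands were measured, fewer cells of a type and less RNA per cell cannot be told apart in any result that follows. The p-values of genes rest on a spread pooled over the 24 glands of the series, not over the 6 glands alone. They reflect the spread between the mice of this series only.

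The milk protein genes took most of the counted reads at day 21. Their share was 70.0% ± 7.75 (SD, n = 3) against 0.44% ± 0.02 (n = 3), a difference of 69.6 percentage points. All 3 day 21 glands lay above all 3 non-lactating ones, and the 2-sided exact permutation test gave 0.1, the smallest p that 3 against 3 allows. Gland 1, with the high lymphocyte markers, had the lowest share of the 3. The plot of shares by stage shows this beside the transcripts of mitochondrial DNA, which took 4.07%, 3.17% and 2.45% of counts at day 21 and 12.3%, 10.7% and 14.6% in non-lactating glands.

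**Figure D1:**
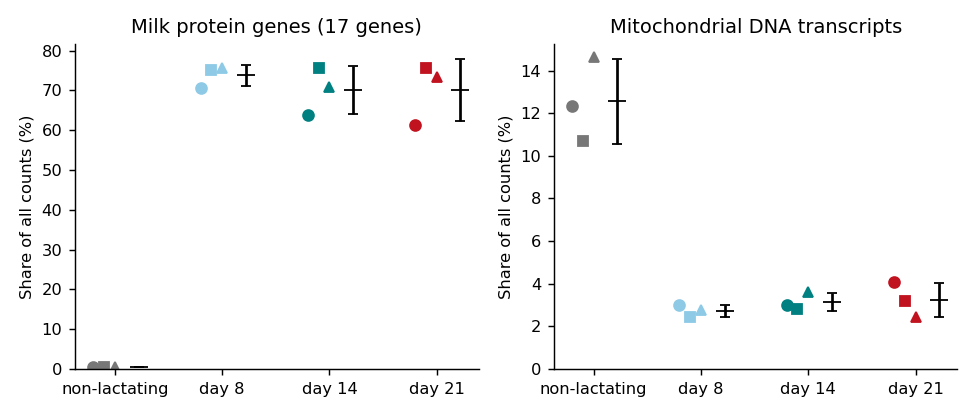
Share of all counts (%) held by the 17 milk protein genes (left) and by mitochondrial DNA transcripts (right) in the C57 glands by stage. Circles, squares and triangles are mice 1, 2 and 3 of a group, and the dash and bar are the mean and SD of 3. The milk protein share lies at 61.2% or more in the day 21 glands and under 0.5% in the non-lactating ones.

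Csn2, beta-casein (chr5:87692624-87699630), held the largest share. It took 24.9%, 29.0% and 27.6% of all counts in the day 21 glands (27.2% ± 2.1, n = 3) and 0.103% on average in the non-lactating glands, 263 times less. Its log2 difference was 8.04 ± 0.38 (SE), with an adjusted p of 1.9e-13 by limma with Benjamini-Hochberg adjustment, the test used for every gene below. Csn1s1, an alpha-casein (chr5:87666208-87682578), took 15.1%, 16.7% and 17.5%, and its 3 day 21 values lay closer together than those of Csn2. Wap, whey acidic protein (chr11:6635482-6638637), took 4.86%, 8.11% and 8.88% against a mean of 0.0363%, and Csn1s2a, another alpha-casein, took 7.42% ± 1.6. For both genes gland 1 was the lowest. Csn3, kappa-casein, which keeps casein micelles in suspension, took 5.07% ± 0.97. Trf, the iron carrier transferrin, took 4.11%, 3.94% and 4.03% against 0.126%, with almost no spread between the day 21 glands.

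Of the 17 milk protein genes 14 rose and 1 fell, with a median log2 difference of 6.39. On the deposited scale 2.51% of 16138 tested genes were called higher and 86.5% lower. Lalba, alpha-lactalbumin, which turns galactosyltransferase into lactose synthase, was at 1023, 943 and 1243 CPM at day 21 and at 3.40, 7.36 and 3.93 in non-lactating glands (log2 7.55 ± 0.26, adjusted p 1.3e-15). The groups were far apart for it. Glycam1 was at 5266, 3228 and 3357 CPM against 39.5, 28.3 and 38.3 (log2 6.74 ± 0.43). Cel, a bile salt-activated lipase that helps the pup digest milk fat, rose by 6.39, and Lpo, lactoperoxidase, by 6.17. Ltf, the iron-binding lactoferrin, was at 1136, 477 and 489 CPM against 199, 148 and 80.9 (log2 2.26 ± 0.58, adjusted p 0.001). Wfdc21 was the one that fell, from 8.14, 3.88 and 7.08 CPM to at most 0.0481. Spp1, the secreted phosphoprotein osteopontin, was at 16.01, 1.01 and 1.71 CPM against 2.92, 8.55 and 2.93, and Slpi, a protease inhibitor, was at 0.481 to 1.49 against 1.10 to 2.68. Both groups overlapped for these last genes, and neither passed the test.

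Outside the milk proteins, 2151 of 16121 genes (13.3%) were higher and 4374 (27.1%) were lower at day 21 on the non-milk scale. Of those called, 488 were higher by more than 4-fold and 1049 lower by more than 4-fold. The median difference over all tested genes was -0.23 on the non-milk scale and -1.6 on the deposited scale, as the histogram of both scales shows. Scaling by TMM, which assumes that most genes do not move, gave 2894 higher and 3601 lower with a median of -0.05, so the higher share of the calls was 44.6% rather than 33.0%. Rescaling without only 8 core milk genes (the caseins, Wap, Lalba and Glycam1) gave 1710 and 5558, with a median of -0.39. Trf, at 4.02% of day 21 counts, stayed in that scale. In 15.6% of tested genes all 3 day 21 glands lay above all 3 non-lactating ones, and in 33% all lay below. On the 2 scales 866 genes were called with opposite signs. A small change is therefore read against these medians, and each list below is given with its count on the deposited scale where that count points the other way. The count of a list is likewise read against the shares over all tested genes, 13.3% higher and 27.1% lower.

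**Figure D2:**
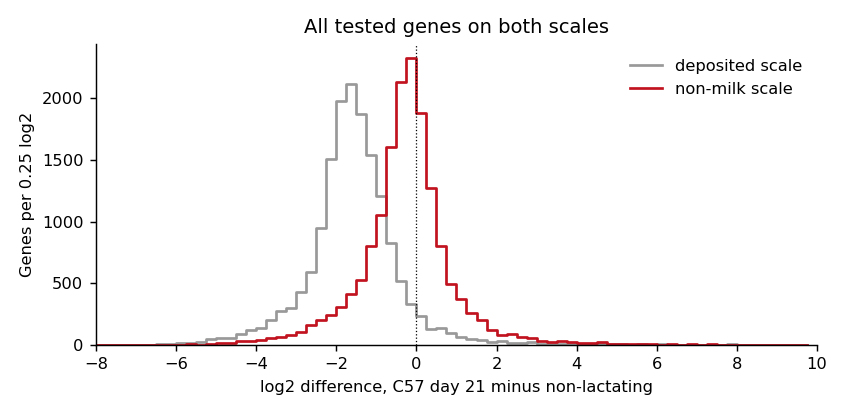
Number of genes per 0.25 log2 units of the difference between C57 day 21 and non-lactating glands, for all tested genes on the deposited scale (grey) and the non-milk scale (red), with a dotted line at 0. The bulk of genes sits near -1.6 on the deposited scale and near -0.23 on the non-milk scale.

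The genes with the largest increases outside the milk proteins have varied roles. Slc34a2, a sodium-phosphate cotransporter (chr5:53038081-53071664), was at 5122, 6271 and 5776 non-milk CPM at day 21 and at 4.21, 6.47 and 6.07 in non-lactating glands. No gene passing the rule for largest changes rose more (log2 9.78 ± 0.38, adjusted p 1.1e-14). Lao1, an L-amino acid oxidase secreted into mouse milk (chr4:118961578-118968912), was at 6495, 15960 and 17190 against 12.9 to 14.2, with gland 1 lowest. Pigr, the receptor that carries polymeric IgA through the epithelium (chr1:130826684-130852249), was at 3073, 4071 and 4000 against 4.62, 8.43 and 5.72 (log2 9.02 ± 0.26, adjusted p 1.5e-16). Slc28a3, a nucleoside transporter, was at 4562, 4621 and 4767 against 12.6, 30.7 and 14.2, the tightest of these genes at day 21. Slc39a8, a zinc and manganese importer, was at 2078, 2385 and 2151 against 16.1 to 22.7 (log2 6.83). For each of these genes the lowest day 21 gland lay far above the highest non-lactating gland.

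**Figure D3:**
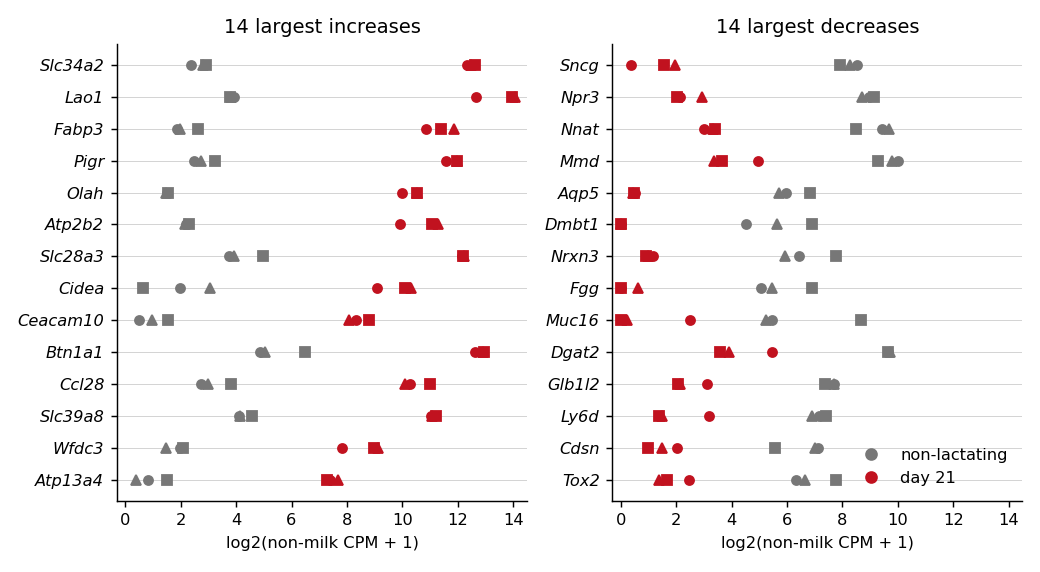
Non-milk CPM on a log2(CPM + 1) axis for the 14 genes with the largest increases (left) and the 14 with the largest decreases (right) at C57 day 21 (red) against non-lactating (grey). Circles, squares and triangles are mice 1, 2 and 3, and red and grey points do not overlap for any gene shown, as the rule for choosing them required.

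Milk fat leaves the cell as a droplet wrapped in plasma membrane, and the genes of that wrapping rose together: 10 of 12 tested rose and none fell, with a median of 5.01 (10 rose and 2 fell on the deposited scale). Btn1a1, butyrophilin, which anchors the droplet to the membrane, was at 6307, 7867 and 7723 non-milk CPM against 28.2, 88.7 and 31.9 (log2 7.36 ± 0.28, adjusted p 9.5e-15). Xdh, xanthine oxidoreductase, its partner in that role, was at 5953, 6020 and 8079 against 289, 224 and 311. Cidea, a protein that fuses and enlarges lipid droplets, was at 547, 1100 and 1283 against 2.97, 0.549 and 7.37. Fabp3, a fatty acid carrier (chr4:130308595-130315463), was at 1858, 2709 and 3693 against 2.69, 5.10 and 2.91 (log2 9.22 ± 0.30, adjusted p 7.9e-16). Mfge8, which coats globules and marks dying cells for removal, rose by 4.89, and the mucin Muc15 rose by 5.97. The 2 members that did not pass, named after their values were seen, were Cd36, a fatty acid transporter at 1124, 1967 and 1577 at day 21 (log2 0.17), and the droplet coat protein Plin3 at 41.2, 27.2 and 37.3.

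Most fatty acid synthesis genes were higher. Of 16 tested, 10 rose and 2 fell on the non-milk scale (median 1.0), while on the deposited scale 4 rose and 8 fell. Olah, the thioesterase that ends synthesis early and gives the medium-chain acids of milk, was at 1019, 1492 and 1477 non-milk CPM against 1.77 to 1.90 (log2 8.85 ± 0.34, adjusted p 8.7e-15). Elovl5, Fads2 and Fads1, which lengthen and desaturate polyunsaturated acids, rose by 4.46, 3.27 and 3.19. Elovl6, which makes long saturated acids, was at 184, 138 and 90.2 against 817, 210 and 687 (log2 -1.89 ± 0.41, adjusted p 0.00077). The low value of non-lactating gland 2 recurs in Scd1, the main desaturase of fat cells, at 14010, 12430 and 10870 against 55820, 15750 and 51000. Scd1 fell by 1.52 with an adjusted p of 0.015, which was 0.085 without non-lactating gland 1, 0.074 without gland 3 and 0.078 under TMM. Fasn, fatty acid synthase itself, named after its values were seen, was at 10390, 13240 and 12850 against 16240, 7401 and 16850, and the groups overlapped. Without non-lactating gland 2, 6 of the 16 genes rose and 4 fell.

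Triglyceride assembly genes moved both ways, with 7 of 18 tested genes higher and 9 lower. Gpat4, which attaches the first fatty acid to glycerol phosphate in the lactating gland, was at 181, 186 and 211 non-milk CPM against 48.1, 45.0 and 69.0 (log2 1.84). Agpat1, which attaches the next, rose by 1.48, and the fatty acid transport protein Slc27a3 rose by 3.59. Agpat2, the enzyme of the same step in fat cells, was at 31.0, 23.7 and 33.5 against 310, 175 and 365 (log2 -3.17 ± 0.39). Dgat2, which completes a triglyceride, was at 42.9, 11.1 and 14.1 against 800, 793 and 848 (log2 -5.35 ± 0.55, adjusted p 9e-08). On the deposited scale only 1 of these genes was higher and 12 were lower. White adipocyte markers fell with them, and their part in these decreases was not tested.

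The cholesterol pathway was higher at several steps: 14 of 23 tested genes rose and none fell, with a median of 0.79. Hsd17b7, a sterol reductase of the late pathway, was at 123, 163 and 158 non-milk CPM against 10.3, 11.7 and 9.36 (log2 3.69 ± 0.21). Fdps, Mvd, Cyp51 and Sqle, which act from the isoprenoid steps to the sterol ring, rose by 2.48, 2.41, 2.38 and 2.34. On the deposited scale 5 of the 23 rose and 12 fell, but Hsd17b7, Sqle, Cyp51, Mvd and Fdps were higher there too, by 0.60 to 1.95.

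Lactose is made in the Golgi from glucose and UDP-galactose. In the list of lactose synthesis and glucose entry 8 of 14 tested genes rose and 2 fell (3 and 7 on the deposited scale). B4galt1, the galactosyltransferase that pairs with alpha-lactalbumin, was at 3370, 4614 and 4662 non-milk CPM against 114, 217 and 175 (log2 4.67 ± 0.27, adjusted p 1.1e-11). Slc2a1, the glucose importer GLUT1, was at 187, 175 and 227 against 18.5, 34.8 and 20.8 (log2 2.98), and Slc5a1, a sodium-glucose cotransporter, rose by 3.86. Pgm2 and Gpi1, which interconvert sugar phosphates, fell by 1.79 and 0.97.

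Mineral transport was among the lists with the most increases. Of 17 tested genes 12 rose and 3 fell on the non-milk scale, and 8 rose and 6 fell on the deposited scale. Atp2b2, the calcium pump of the apical membrane that loads milk with calcium, was at 962, 2163 and 2530 non-milk CPM against 3.45 to 3.96 (log2 8.55 ± 0.39). Its relatives Atp2b4 and Atp2b1 fell by 2.28 and 0.72; the second was no longer called without day 21 gland 3 (adjusted p 0.096) or non-lactating gland 2 (0.06). Atp2c2, a calcium and manganese pump of the Golgi, was at 292, 349 and 493 against 5.25, 13.1 and 5.98. Slc30a2, which loads zinc into secretory vesicles, was at 50.5, 46.3 and 75.8 against 0.552, 1.43 and 0.285 (log2 5.08). Pthlh, the parathyroid hormone-related protein with which the gland draws calcium from bone, named after its values were seen, was at 67.8, 143 and 143 against 0.949 to 1.28 (log2 5.75 ± 0.33, adjusted p 1.1e-11).

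Amino acid transporters moved both ways, with 6 of 19 tested higher and 5 lower (4 and 13 on the deposited scale). The lower count is near the 27.1% called lower over all tested genes, and the higher count is above the 13.3% called higher. Slc7a5 and Slc3a2, the chains of the importer of large neutral amino acids, were at 898, 534 and 474 against 12.01 to 15.7 non-milk CPM and at 377, 261 and 304 against 75.2 to 112. Slc1a5, the glutamine exchanger ASCT2, was at 48.7, 27.9 and 42.7 against 836, 550 and 1019 (log2 -4.29 ± 0.40, adjusted p 2.2e-08). Its relative Slc1a4 was at 141, 242 and 253 against 5.73, 10.1 and 9.01 (log2 4.51).

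Genes of the secretory pathway were mostly higher on the non-milk scale. Of 34 genes of folding in the endoplasmic reticulum and the unfolded protein response, 23 rose and 2 fell, with a median of 0.86. On the deposited scale 2 rose and 24 fell. Xbp1, the transcription factor that enlarges the reticulum in secretory cells, was at 1091, 895 and 956 non-milk CPM against 159, 234 and 218 (log2 2.28 ± 0.22, adjusted p 3.4e-08). Hspa5, the chaperone BiP, was at 222, 247 and 220 against 86.3, 78.2 and 73.3 (log2 1.52), and the disulfide isomerase P4hb rose by 1.79. Fkbp11, a prolyl isomerase of secretory cells, was at 28.2, 39.7 and 41.9 against 1.04 to 1.90 (log2 3.85) and rose on both scales. Of 37 genes of COPI, COPII and Golgi traffic 19 rose and 2 fell (0 and 33 on the deposited scale). Surf4, a cargo receptor, was at 397, 507 and 467 against 137 to 155, and Sec23b, a coat protein of vesicles leaving the reticulum, rose by 1.71.

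Genes of the integrated stress response, which the cell turns on when amino acids or folding capacity run short, were higher in 9 of 21 tested and lower in 2, with a median of 1.02 (2 and 10 on the deposited scale). Aldh18a1, the first enzyme of proline synthesis, was at 114, 218.6 and 228 non-milk CPM against 16.2 to 19.1 (log2 3.30), the largest change of the list's named members. Atf4, its central transcription factor, was at 235, 232 and 199 against 71.1, 88.5 and 69.8 (log2 1.53 ± 0.19, adjusted p 9.6e-07). Asns, asparagine synthetase, rose by 1.79 and Chac1, which degrades glutathione, by 2.56. Atf5, a related factor, fell by 1.03 and was no longer called without day 21 gland 1 or non-lactating gland 1, or under TMM.

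In the prolactin and STAT5 list 5 of 17 tested genes rose and 3 fell (8 and 3 under TMM, 2 and 12 on the deposited scale). Elf5, the transcription factor that drives alveolar cells, was at 881, 1187 and 1170 non-milk CPM against 26.6, 87.7 and 30.7 (log2 4.65 ± 0.28, adjusted p 2e-11), and Ehf, a relative, rose by 4.42. Prlr, the prolactin receptor, was at 337, 438 and 288 against 1225, 3465 and 1203, lower in every day 21 gland (log2 -2.30 ± 0.45, adjusted p 0.00024). Ghr, the growth hormone receptor, was at 177, 101 and 78.8 against 1085, 1018 and 1023 (log2 -3.20 ± 0.33). Stat5a itself was at 199, 211 and 179 against 112, 218 and 133, and the groups overlapped. Its adjusted p was 0.18, and the call appeared under TMM or without non-lactating gland 2, the gland rich in epithelial markers.

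The hormone-sensing luminal cells, which carry the receptors for estrogen and progesterone, were marked by 10 tested genes, of which 9 fell and none rose (median -3.67). Pgr, the progesterone receptor, was at 14.2, 5.33 and 4.70 non-milk CPM against 167, 687 and 164 (log2 -5.03 ± 0.63, adjusted p 1.1e-06). Areg, the growth factor amphiregulin, was at 0.147, 0 and 0 against 8.80, 88.3 and 27.8. Tbx3 and Prom1 fell by 3.73 and 3.46. Esr1, the estrogen receptor, was the exception, at 236, 249 and 245 against 216, 231 and 205, a log2 difference of 0.16 with a 0.62 adjusted p. Secretory luminal markers moved both ways, 8 of 17 higher and 4 lower (3 and 9 on the deposited scale). Cldn8, a tight junction protein, was at 189, 297 and 259 against 21.4, 50.2 and 25.0. Kit and Aldh1a3, markers of luminal progenitor cells, fell by 4.64 and 3.69. Non-lactating gland 2 was the highest of its group in Pgr, Areg, Tbx3, Kit and Prlr.

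Few myoepithelial markers passed the test, with 4 of 16 higher, 2 lower and a median of 0.34, although 15 of the 16 were lower on the deposited scale. Without day 21 gland 2, or non-lactating gland 1 or 3, 2 rose and 2 fell. Myh11, smooth muscle myosin, was at 221, 287 and 345 non-milk CPM against 113, 150 and 106 (log2 1.20). Krt14 was at 17.1 to 41.7 in non-lactating glands (log2 0.19), which overlapped day 21. Oxtr, the oxytocin receptor that triggers milk ejection, was at 115, 156 and 107 against 145, 211 and 113 (log2 -0.28, adjusted p 0.58), also overlapping.

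Involution genes did not move as one. Of 28 tested genes of involution and the acute phase 10 rose and 7 fell (5 and 15 on the deposited scale). The lower count is near the 27.1% called lower over all tested genes. Lcn2, an iron-sequestering acute phase protein (chr2:32384633-32388252), was at 5174, 3396 and 3165 non-milk CPM against 130, 197 and 123 (log2 4.70 ± 0.43, adjusted p 1.8e-08). Clu, the extracellular chaperone clusterin, was at 2316, 2662 and 2518 against 118, 241 and 120 (log2 4.04 ± 0.44), and Lbp, which binds bacterial lipopolysaccharide, was at 406, 328 and 371 against 74.4, 52.7 and 45.3. Cebpd, a transcription factor downstream of STAT3, rose by 2.70. Stat3 was at 303, 212 and 272 against 144, 190 and 108 (log2 0.85 ± 0.24, adjusted p 0.0062). Its call was lost without non-lactating gland 3 (adjusted p 0.053), and on the deposited scale Stat3 was lower by 0.90, so its direction rests on the scale.

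Other genes of the same program were lower. Socs3, the feedback inhibitor of STAT3 signalling, was at 11.2, 1.97 and 7.90 non-milk CPM against 66.5, 222 and 82.4 (log2 -3.97 ± 0.74, adjusted p 0.00015). Igfbp5, which blocks the survival factor IGF1, was at 218, 106 and 90.1 against 1563, 3139 and 1271 (log2 -3.84). The matrix proteases Mmp2, Plat and Mmp11 fell by 2.96, 2.16 and 1.95. Tgfb3 was at 33.3, 41.1 and 75.7 against 51.0, 120 and 52.0 and did not pass the test. Socs3, Igfbp5 and Tgfb3 were named after their values were seen, as genes whose rise is well known in early involution.

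Lysosome and autophagy genes moved both ways. Of 33 lysosomal genes 7 rose (Lipa, an acid lipase, by 2.63 and Ctsc, a protease, by 2.07) and 6 fell (Hexa, a hexosaminidase, by 2.47). The lower count is below the 27.1% called lower over all tested genes. Under TMM the count was 10 higher and 1 lower, without non-lactating gland 1 it was 8 and 3, and on the deposited scale 1 and 31. Of 23 autophagy genes 7 rose, led by the cargo receptor Nbr1 at 325, 382 and 369 non-milk CPM against 142, 166 and 131, and 4 fell, among them the mitophagy receptor Bnip3 at 58.8 to 61.7 against 163 to 286. Without day 21 gland 3 or non-lactating gland 3 the autophagy count was 4 and 4, and on the deposited scale 22 of the 23 fell.

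**Figure D4:**
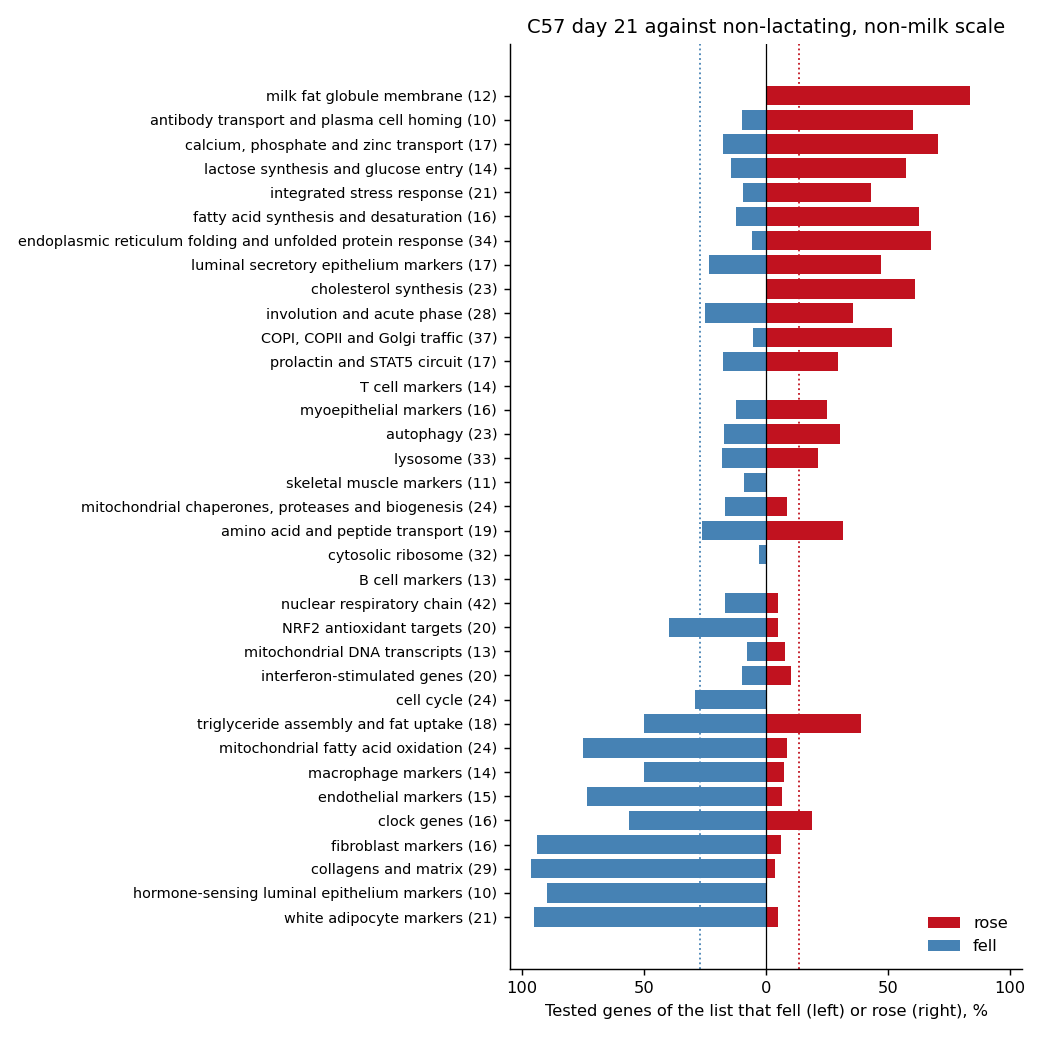
Share of the tested genes of each list that fell (left, blue) or rose (right, red) at C57 day 21 against non-lactating on the non-milk scale, for lists with 10 or more tested genes (number in brackets), ordered by median difference. Dotted lines mark the share of all tested genes called lower (27.1%) and higher (13.3%); adipocyte, collagen and fibroblast lists lie far past the left line, and milk fat globule, reticulum and mineral transport lists past the right one.

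Genes of fat burning were mostly lower. Of 24 genes of mitochondrial fatty acid oxidation 18 fell and 2 rose (median -0.87), and on the deposited scale 22 fell and 1 rose. Cpt1a, which admits long-chain fatty acids into the mitochondrion, was at 10.7, 11.5 and 9.23 non-milk CPM against 102, 110 and 95.4 (log2 -3.17 ± 0.23, adjusted p 5.2e-10), with little spread in either group. Decr1, an enzyme that prepares unsaturated fatty acids for oxidation, fell by 2.72. The risers were the uncoupling proteins Ucp3, at 276, 87.5 and 218 against 9.85 to 17.3, and Ucp2, at 1407, 771 and 822 against 372 to 411. White adipocyte markers fell in the same glands, and their part was not tested.

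Few respiratory chain genes passed the test. Of 42 nuclear genes 2 rose and 7 fell with a median of -0.15, near the median of all genes, and under TMM 2 rose and 1 fell. Without day 21 gland 1 the count was 4 and 3, and without non-lactating gland 1 or 3 it was 2 and 3. Of 13 transcripts of mitochondrial DNA, mt-Co2 rose by 1.14 (adjusted p 0.0013, or 0.05 from the second-read columns alone) and mt-Nd5 fell by 0.80 (adjusted p 0.043). The call of mt-Nd5 was lost without day 21 gland 1 (adjusted p 0.073) or 3 (0.15), without non-lactating gland 1 (0.093) or 3 (0.14), and under TMM (0.2). The 13 transcripts had a median of -0.24 on this scale, beside -0.23 for all genes. On the deposited scale all 13 were called lower, so the direction of mt-Co2 rests on the scale. Among 24 genes of mitochondrial chaperones, proteases and biogenesis 2 rose and 4 fell (1 and 23 on the deposited scale). Clpx, a chaperone of the matrix protease ClpP, was at 217, 176 and 167 against 31.8 to 46.9 (log2 2.32 ± 0.16, adjusted p 1.4e-10). Trap1, a mitochondrial HSP90, and Mfn2, an outer membrane fusion protein, fell by 1.10 and 1.16, and Mfn1, which fuses the same membrane, rose by 0.67. The direction of Mfn1 rests on the scale.

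Antioxidant targets of NRF2 were lower in 8 of 20 and higher in 1 (4 and 1 without day 21 gland 2, 5 and 2 under TMM, 19 and 0 on the deposited scale). Gpx3, a secreted glutathione peroxidase, was at 375, 126 and 132 non-milk CPM against 1414, 1022 and 2307, Cat, catalase, was at 186, 201 and 156 against 616, 301 and 589, and Txnrd1, thioredoxin reductase, rose by 1.18. The rise of Txnrd1 therefore rests on the scale. Of 32 genes of the cytosolic ribosome 1 fell and none rose (3 rose and none fell under TMM, and 3 rose and 1 fell without day 21 gland 1). Of the cell cycle list 7 of 24 were lower and none higher (6 and 2 under TMM). That lower count is near the 27.1% called lower over all tested genes. Without day 21 gland 3 only 3 were lower, and without non-lactating gland 1 only 4. Mcm6, a replication helicase subunit, was at 6.31, 3.35 and 3.73 against 18.4 to 24.7 (log2 -2.09), whereas Mki67, a marker of cycling cells, was at 62.8, 96.4 and 80.0 against 36.3 to 47.8 and did not pass (log2 0.89, adjusted p 0.094). It was called under TMM (adjusted p 0.036), with the 12 C57 glands alone (0.0041) and with the compared groups alone (0.0079).

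Clock genes were mostly lower, with 9 of 16 lower and 3 higher and a median of -1.54 (13 lower and 1 higher on the deposited scale). Dbp, an output factor of the clock, was at 2.79, 1.18 and 2.84 non-milk CPM against 51.6, 54.3 and 77.3 (log2 -4.27 ± 0.42, adjusted p 4.3e-08). Per3, Tef and Cry2 fell by 2.78, 2.36 and 2.21. Arntl, the activator BMAL1, was at 53.7, 54.3 and 56.4 against 14.0, 15.3 and 8.41 (log2 2.08), and its relative Npas2 rose by 2.53. The hour at which glands were taken is not given in the sources used here, so stage and time of day cannot be told apart for these genes.

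Genes of antibody transport and plasma cell homing were higher in 6 of 10 and lower in 1. Jchain, which links IgA into the form that Pigr carries (chr5:88519809-88527891), was at 215, 344 and 269 non-milk CPM against 7.83, 5.58 and 5.82 (log2 5.21 ± 0.59, adjusted p 2.8e-07). Ccl28, the chemokine that draws IgA plasma cells to the gland, was at 1254, 2033 and 1101 against 5.66, 13.1 and 6.86. Fcgrt, the receptor for IgG, was at 12.8, 6.31 and 11.5 against 121, 61.1 and 123 (log2 -3.18). Gland 1, with the highest lymphocyte markers, was the lowest of the 3 for Jchain. None of 14 T cell and none of 13 B cell markers passed the test in either direction. Macrophage markers were lower in 7 of 14 and higher in 1, and Mrc1 was at 33.6, 21.1 and 11.5 against 122, 45.0 and 94.0. Of 4 tested neutrophil markers S100a8 alone passed (on the deposited scale none rose and 3 fell), at 35.4, 2.37 and 5.86 against 0.0690 to 1.66. It was lost without day 21 gland 1 (adjusted p 0.11) or non-lactating gland 1 (0.054), and its partner S100a9 was listed at 0 throughout. Plasma cell markers were higher in 3 of 8 and lower in 1 (1 and 4 on the deposited scale), and of 4 lymph node stroma markers 1 rose. Of 20 interferon-stimulated genes 2 rose and 2 fell (1 and 4 without day 21 gland 1 or non-lactating gland 2, 0 and 18 on the deposited scale).

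Markers of fat and stroma fell almost without exception. Of 21 white adipocyte markers 20 fell and 1 rose, with a median of -3.96 against -0.23 for all genes. Their summed level was 4219 to 5484 non-milk CPM at day 21 against 15640 to 27050. Plin1, which coats the adipocyte's droplet (chr7:79720218-79732903), was at 47.3, 21.2 and 23.0 against 1076, 750 and 1187 (log2 -5.06 ± 0.43, adjusted p 6e-09). Adipoq, the hormone adiponectin, was at 31.3, 22.1 and 25.3 against 987, 463 and 962. Sncg, gamma-synuclein, which fat cells make in quantity, was at 0.294, 1.97 and 2.84 against 371, 242 and 310 (log2 -6.95 ± 0.53). The exception was Acsl1, which activates fatty acids and was at 1878, 2965 and 3425 against 728 to 1781. Its increase of 1.13 was lost without day 21 gland 2 or 3 or without non-lactating gland 2, and no marker of the list was called higher on the deposited scale. Acsl1 held a large part of the summed day 21 level, so that sum understates the fall of the other markers.

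Of 29 genes of collagens and matrix 28 fell and 1 rose, and of 16 fibroblast markers 15 fell and 1 rose. Col15a1, a collagen of basement membranes, was at 34.4, 34.1 and 35.2 non-milk CPM against 614, 456.9 and 480 (log2 -3.85 ± 0.30, adjusted p 1.6e-09). Col1a1, the main fibrillar collagen, was at 196, 196 and 169 against 2547, 1264 and 1871. Tnc, tenascin C, a matrix protein of remodelling tissue, went the other way, at 128, 89.2 and 108 against 16.4 to 24.4 (log2 2.36). On the deposited scale no gene of the collagen and matrix list was called higher. Of 15 endothelial markers 11 fell and 1 rose, with Pecam1 at 57.7 to 66.7 against 149 to 178. The riser was Prox1, a transcription factor of lymphatic endothelium and of some epithelia, at 130, 120 and 143 against 4.56, 4.11 and 2.34 (log2 4.85 ± 0.36). Of the smaller marker lists, 1 of 5 brown adipocyte, 1 of 11 skeletal muscle, 1 of 3 skin and 1 of 6 red blood cell genes fell and none rose, and none of 3 sex-linked genes passed.

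Several of the largest decreases belonged to neither list. Aqp5, a water channel of gland ducts, was at 0.440, 0.395 and 0.355 non-milk CPM against 61.7, 114 and 51.2. Dmbt1, a mucosal scavenger protein, was listed at 0 in all 3 day 21 glands and at 21.8, 119 and 49.0 in the non-lactating ones. Muc16, a membrane mucin, was at 4.62, 0 and 0.178 against 42.6, 404 and 37.1. The highest non-lactating value in each of these was that of gland 2, the one with the most epithelial markers.

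No single gene was called between day 21 and day 14. None of 16121 genes (0% called) passed limma's test on the non-milk scale and none on the deposited scale, and limma voom on the recovered reads also called none. At an unadjusted p under 0.05 there were 172 genes, and the median difference was -0.02. Groups of 3 did not overlap in 1.49% of genes with day 21 higher and in 2.18% with day 21 lower. The milk protein share was 70.0% ± 7.75 at day 21 and 70.1% ± 5.95 at day 14 (2-sided exact permutation p 0.9). The intervals bound what could be missed: the 95% interval of the log2 difference was -0.82 to 0.75 for Csn2, -0.75 to 0.83 for Slc34a2, -1.05 to 0.74 for Lcn2, -0.62 to 0.36 for Stat3 and -1.71 to 1.35 for Socs3. Same-numbered glands of the 2 days resembled each other in antibody genes, as given above, and whether they are independent samples was not tested. With the mouse number as a block the count stayed at 0. That block gave each number the same effect in all 8 groups, so it did not pair the glands of days 14 and 21. No paired test of the 2 days was run.

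Against day 8 the differences were fewer than against non-lactating glands. On the non-milk scale 208 genes (1.29%) were higher at day 21 and 132 (0.819%) lower, 37 and 25 of them by more than 4-fold, and the groups did not overlap in 14.2% and 7% of genes. On the deposited scale 0.663% were higher and 0.31% lower. The milk protein share did not separate the stages (73.8% ± 2.7 at day 8, exact permutation p 0.7). These counts moved with the glands used: without day 21 gland 1 they were 104 and 67, without day 8 gland 2 they were 84 and 64, without day 8 gland 3 they were 107 and 57, and without day 8 gland 1 the lower count was 73.

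Wfdc2, a secreted protein of the whey acidic protein family, was at 85.6, 14.4 and 55.9 non-milk CPM at day 21 and at 1.17, 0 and 0.369 at day 8 (log2 4.88 ± 0.77, adjusted p 0.0011). Mt2, a zinc-binding metallothionein, was at 299, 47.9 and 178 against 2.84, 7.04 and 5.54 (log2 4.55, adjusted p 0.0042). With voom on recovered reads neither was called (adjusted p 0.21 and 0.083). At day 14 the same genes were at 135, 17.8 and 50.6 and at 416, 56.4 and 159, so glands of the same number ranked alike on both days. Cldn4, a tight junction protein, was at 106, 13.9 and 148 against 1.85 to 4.10, and its adjusted p of 0.044 did not hold when any gland but day 21 gland 2 was left out (0.099 to 0.19). Eda2r, a receptor of the tumour necrosis factor family, was at 34.5, 33.2 and 41.2 against a mean of 2.66 (log2 3.40 ± 0.46, adjusted p 0.00027) without that spread. Jchain rose by 2.53 (adjusted p 0.021), from 32.6, 59.4 and 50.4 at day 8.

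**Figure D5:**
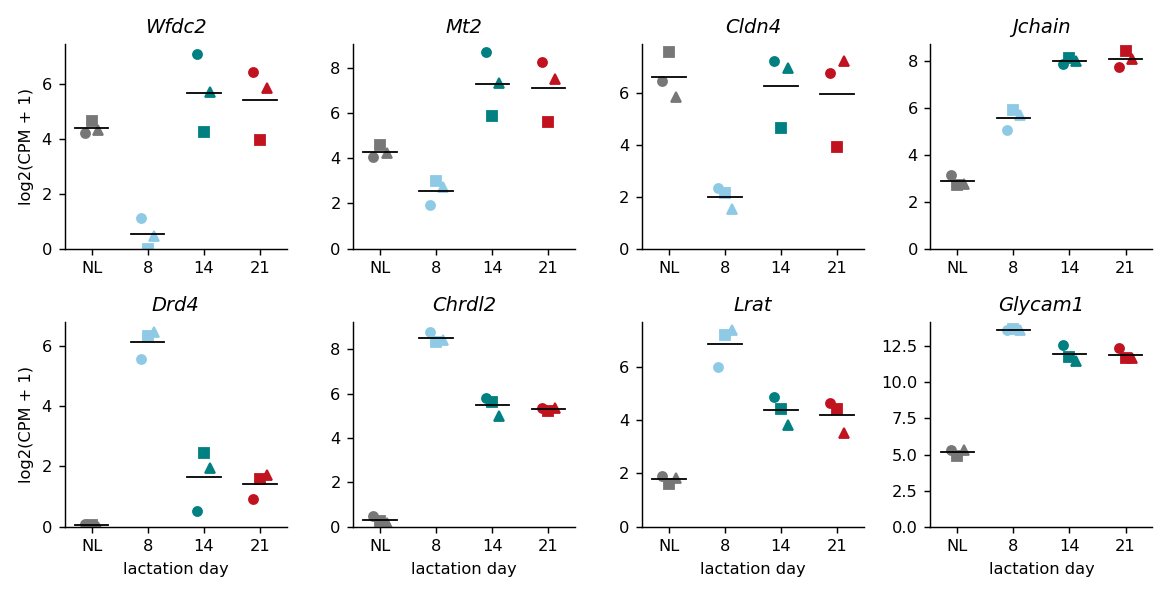
Levels of 8 genes in C57 glands by stage on a log2(CPM + 1) axis, non-milk CPM except Glycam1 (deposited CPM); NL is non-lactating. Circles, squares and triangles are mice 1, 2 and 3 and bars are group means. Wfdc2, Mt2, Cldn4 and Jchain lie higher at day 21 than at day 8 and Drd4, Chrdl2 and Lrat lower, with days 14 and 21 side by side.

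Drd4, a dopamine receptor, was at 0.881, 1.97 and 2.31 non-milk CPM at day 21 and at 46.8, 78.9 and 87.2 at day 8 (log2 -4.72 ± 0.48, adjusted p 2.3e-05). Chrdl2, a secreted inhibitor of bone morphogenetic proteins, was at 40.5, 36.6 and 40.2 against 445, 319 and 339 (log2 -3.19 ± 0.37, adjusted p 6.7e-05), the tightest of these genes at day 21. Lrat, which stores vitamin A as an ester, was at 24.2, 20.1 and 10.4 against 61.6, 146 and 165 (log2 -2.66 ± 0.49). All 3 genes were as low at day 14, with means of 2.58, 44.8 and 20.5. Stat5a was lower than at day 8 by 1.06 (adjusted p 0.014), with a day 8 mean of 414, and Mki67 by 1.62 (adjusted p 0.042), with a day 8 mean of 243. Fkbp11 fell by 1.51 (adjusted p 0.0018) and Tnc by 1.48 (adjusted p 0.0044). Among milk proteins Prol1, a proline-rich secreted protein, rose by 3.56 on the deposited scale, and Spp1 was lower by 4.97 (adjusted p 0.012), with day 8 values of 635, 65.0 and 66.4 CPM against 1.01 to 16.01.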

How the data were processed

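The deposited values are log10 of CPM + 1: each of 48 columns sums to 1000000 CPM when the transform is undone. Per the submitters' processing notes the builds were GRCm38 and mm10. The sources used here name no aligner or counter. Tests had been planned for log2 CPM, so values were converted to log2(CPM + 1). Whole reads were recovered within 0.05 for 100% of values. First- and second-read columns of a gland differed in reads by at most 0.448% (81.7% in non-lactating gland 2) and were averaged in CPM. Of 32544 gene rows, 27 with symbols turned into dates were named nowhere.

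Limma 3.58.1 in R 4.3.3 (lmFit and eBayes, mean-variance trend on) fitted 8 group means over 24 glands, which share 1 estimate of spread with 16 residual degrees of freedom. Tests were 2-sided over genes with CPM above 1 in at least 3 glands, with Benjamini-Hochberg adjustment over all genes at 0.05. Voom from limma ran on the recovered reads. Shares were compared by an exact permutation test (scipy 1.17.1). Positions are from GENCODE release 21 for mouse. In simulated counts for day 21 against non-lactating (16102 genes), all genes but the planted ones were left unchanged. Of the planted genes, 30% of 100 with a 2-fold change and 83% of 100 with a 4-fold change were called. Of 122 calls 9 (7.4%) were false. In the real comparison 13.3% of genes were called higher and 27.1% lower, so these rates need not hold there.

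Genes named were the 14 largest increases and decreases (8 against other days) among called genes with no overlap and a mean of at least 10 CPM, up to 5 members of each list with the smallest adjusted p, up to 3 that went the other way, the milk proteins and a fixed set. Others are marked as named after their values were seen, or are marker checks. The members and the 43 lists were chosen with earlier results of these data known. Mouse numbers did not pair day 21 with non-lactating glands: deviations of same-numbered glands from their group means correlated at -0.09, -0.01 and 0.04.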

Additional observations from a re-analysis of the deposited data

Results flagged for a closer look

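The effect of day 21 against non-lactating was compared between C57 and NZB glands for 13 genes, by the difference of the 2 effects in the same limma fit with adjustment over all genes. It passed for 11. The milk protein genes Csn2, Wap, Lalba and Glycam1 rose less in NZB glands. The NZB milk protein share was 24.4% ± 6.23 (n = 3) at day 21 and 1.44% ± 0.49 (n = 3) in non-lactating glands. In C57 glands these shares were 70.0% and 0.44%, so the genotypes differed at both stages and both enter the difference of effects. Ltf, also on the milk protein list, rose more in NZB glands, as given below. For Csn2 the C57 effect was larger by 4.21 (8.04 against 3.83, adjusted p 3.2e-06), for Wap by 3.65 (adjusted p 9.7e-06), for Lalba by 2.83 (adjusted p 4.1e-06) and for Glycam1 by 2.42 (adjusted p 0.0016). Of the genes on the non-milk scale Slc34a2 differed most, by 8.86, having risen by 9.78 in C57 and 0.91 in NZB glands (adjusted p 1.3e-09). Fabp3 differed by 5.41 (9.22 against 3.81, adjusted p 3.7e-08).

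Genes of the acute phase rose less in C57 than in NZB glands. The difference was -6.13 for Ltf (2.26 against 8.38, adjusted p 5.2e-06), -3.01 for Lcn2 (4.70 against 7.70, adjusted p 0.0015) and -1.19 for Lbp (2.68 against 3.88, adjusted p 0.0077). Ltf, like the other milk protein genes, is on the deposited scale, and Lcn2 and Lbp are on the non-milk scale. The rescaling raised log2 values by 1.37 to 2.04 in C57 and by 0.28 to 0.52 in NZB day 21 glands. Sizes are therefore not compared across the 2 scales. The fat cell genes fell further in C57 glands, with differences of -2.53 for Plin1 (adjusted p 0.0059) and -2.68 for Adipoq (adjusted p 0.013). For Clu (-0.91, adjusted p 0.35) and Stat3 (-0.70, adjusted p 0.16) the difference did not pass.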

How the results depend on the processing

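The counts of genes higher and lower at day 21 than in non-lactating glands stayed within 1.5 times the reported ones under every alternative tried: on the non-milk scale they ranged from 1723 to 2273 and from 3612 to 4480 when 1 gland was left out, and on the deposited scale from 347 to 427 and from 13288 to 14200. With the mouse number as a replicate block, 2139 were higher and 4298 lower, and the block left the count against day 14 at 0. The block was shared by all 8 groups and was not a paired test of days 14 and 21. The count against day 14 was 0 under every alternative. Against day 8 the counts were less stable. The higher count of 208 became 111 with voom and 362 with the compared groups alone, and ranged from 84 to 162 without 1 gland. The lower count of 132 became 85 with voom, 217 with TMM, 210 with median-of-ratios size factors and 221 with the compared groups alone, and ranged from 57 to 106 without 1 gland. The cause of these shifts was not tested, except that leaving out a gland also leaves fewer samples. The difference in milk protein share between day 21 and non-lactating glands ranged from 66.8 to 74.0 percentage points without 1 gland. The genotype difference passed for 11 of 13 genes under each alternative but one: with no filter on low values it passed for 9. Of 250 called results of named genes 214 kept their call under every alternative, 36 lost it under at least 1, and none reversed within the non-milk scale alternatives. For day 8 these results cover only the genes picked as its largest changes. Other day 8 calls, such as those of Stat5a, Mki67, Wipi1 and Spp1, were not tried under the alternatives. DESeq2 and edgeR, planned as alternatives, were not used, and voom on the recovered reads was the one count-based test run. Depth is lowest in non-lactating gland 2, and genes near 1 CPM there rest on few reads.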

Other observations

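In NZB glands the likeness of same-numbered mice seen between C57 days 14 and 21 was not apparent: immunoglobulin V segment use correlated at 0.85 to 0.89 in same-numbered pairs and at 0.86 to 0.89 in the others. Across all genes, the deviations of C57 day 21 glands from their group mean correlated with those of the same-numbered day 14 glands at 0.48, 0.41 and 0.05. Saa3, an acute phase apolipoprotein, was at 38.2, 3.95 and 3.82 non-milk CPM at day 21 and at 53.2, 5.60 and 7.09 at day 14, highest in gland 1 on both days. In non-lactating glands it was at 4.78 to 6.67.

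Against day 8 no list had more than 2 called genes in either direction. Of 17 genes of mineral transport 2 rose, of 28 genes of involution and the acute phase 2 rose, and of 16 genes of fatty acid synthesis 2 fell. Rsad2, an interferon-stimulated gene, rose by 1.30 (limma adjusted p 0.021), and Wipi1, an autophagy gene, by 0.69 (adjusted p 0.046). Cxcl1, a chemokine for neutrophils, was at 47.9, 12.6 and 17.7 non-milk CPM at day 21 and rose by 2.46 (adjusted p 0.0079), from a day 8 mean of 3.64.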
